A study of Mus musculus with 24 samples.

Results

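Livers of mice lacking the glucagon receptor (labelled GCGR KO, here KO) were compared with livers of wildtype (WT) mice at postnatal day 7.5 (P7.5), across 17260 genes. The comparison rests on 7 of the study's 24 libraries: P7.5 KO replicates 1, 3 and 4 and P7.5 WT replicates 1 to 4. The library labelled P7.5 KO_2 was set aside: libraries were chosen on the measured Gcgr log2 ratio, and its ratio was above 4, the level of the WT libraries, and it is shown throughout as a single extra library. Its genotype cannot be settled from the labels, so it is called the library labelled P7.5 KO_2, or KO_2. The study measured total liver RNA of both genotypes at P7.5, at P2.5 and before birth (E18.5), in 6 groups of 4 libraries, on dual-colour Agilent arrays. Each liver RNA was labelled with Cy5 and hybridised with Cy3 universal mouse reference RNA, a pool of RNAs, so that each value gives liver relative to reference as a log2 ratio, on which 1 unit is a 2-fold difference. The labels give no strain, sex, targeted allele or driver for either genotype. They also do not say whether each library is 1 animal or a pool. The p-values therefore measure the spread between libraries within a group, which may be partly technical. That spread was taken over 23 libraries of all the ages, without KO_2, and not over the 7 P7.5 libraries alone.

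Glucagon is released by the alpha cells of the pancreas between meals and binds GCGR on hepatocytes, a receptor coupled to the stimulatory G protein. The receptor raises cyclic AMP (cAMP), which activates protein kinase A and, through it, the transcription factor CREB. Hepatocytes then release glucose, take up and break down amino acids, pass their nitrogen to the urea cycle and oxidise fatty acids. In the suckling period the liver makes glucose for an animal fed on fat-rich, carbohydrate-poor milk, and it is at the same time losing its role in blood formation.

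Gcgr encodes the receptor itself, and its values chose the libraries, so they are given as a description without a test. The Gcgr log2 ratio was 5.50, 5.61, 5.65 and 5.65 in WT replicates 1 to 4, and 0.00, 0.26 and -0.01 in KO replicates 1, 3 and 4. The library labelled P7.5 KO_2 read 5.02, below the 4 WT libraries and far above the other 3. No library lay near the limit of 4. At the other ages every library matched its label: Gcgr lay between 4.87 and 5.76 in WT and between -0.01 and 0.19 in KO at E18.5, and between 5.51 and 6.26 in WT and between 0.17 and 0.38 in KO at P2.5.

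The arrays at P7.5 had between 26771 and 31877 probes well above background in Cy5 and 0 saturated probes. All 4 arrays labelled P7.5 KO lay on 1 slide, scanned on another day and read with another software version than the 4 WT arrays, which lay on 4 other slides. Array batch and genotype therefore cannot be told apart by design, and the library labelled P7.5 KO_2 is the one array of the KO slide with a WT level of Gcgr. KO replicates 3 and 4 were the most alike of the 36 pairs of libraries within a group of the study (standard deviation, SD, of their differences over genes 0.144, against 0.184 to 0.206 among P7.5 WT pairs), though no file was a copy of another. KO replicate 1 stood apart from both (SD of differences 0.365 and 0.376). Some results that rest on KO replicate 1 or on that pair are also given without 1 of these libraries. For others, among them Orm2, Acsl1, Slc37a4 and Cyp7a1, only the values of the libraries are given. Y-linked Ddx3y was high in WT replicates 1 and 2 (1.32 and 1.04) and in KO replicates 1, 3 and 4 (1.33, 1.70 and 1.39), and low in WT replicates 3 and 4 and in the library labelled P7.5 KO_2 (-2.42, -2.42 and -2.56). The part of this imbalance in the results was not tested. The tissue label was checked on hepatocyte markers: Alb, which encodes albumin, lay between 5.59 and 5.94 in WT and between 5.48 and 5.61 in KO. Of 12 hepatocyte markers 1 (Cps1) passed the test between genotypes, and their median difference was -0.24, but 11 were lower under median centring (median -0.58), and 4 higher and 2 lower in Cy5 alone.

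Of the 17260 genes tested, 6527 (37.8%) differed between KO and WT at a limma adjusted p of at most 0.05. In KO 3191 (18.49%) were higher and 3336 (19.3%) lower, and the median difference over all genes was -0.02. A difference of at least 2-fold was reached by 564 genes (3.27%), of which 364 (2.11%) were higher and 200 (1.16%) lower. Just inside that limit were Tmem33 (1.001) and Creld2 (-1.002), and just outside it Tmem256 (-0.998), Sqle (0.998) and Myo1c (0.998). The 3 KO and 4 WT values did not overlap for 8503 genes (49.3%), which is the background for each statement on overlap below. With KO replicates 3 and 4 averaged into 1 library, 4829 genes passed, 425 of them at least 2-fold. Without KO replicate 1, 6498 passed, and 874 were at least 2-fold apart. With KO_2 counted as KO, 6136 (35.6%) passed. With the P7.5 libraries fitted alone, so that the other ages did not enter the spread, 7901 passed.

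The library labelled P7.5 KO_2 did not sit at one end. Its place was expressed as a fraction of the way from the WT mean, at 0, to the mean of the other 3 KO libraries, at 1. Among the 200 genes at least 2-fold lower in KO its median place was 0.128, it was nearer the WT mean for 155 and it lay within the range of the 4 WT values for 92. Among the 364 genes at least 2-fold higher its median place was 0.548, it was nearer the KO mean for 203 and it lay within the WT range for 41. Over all genes that passed, most of them with small differences, its median place was 0.566 for higher and 0.686 for lower genes. A library with a WT level of Gcgr on the KO slide was thus nearer to KO than to WT for 1807 of 3191 higher and 2219 of 3335 lower genes. Over the same genes it lay within the WT range for 566 higher and 565 lower genes. Its place is given below with each group of genes.

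**Figure D1:**
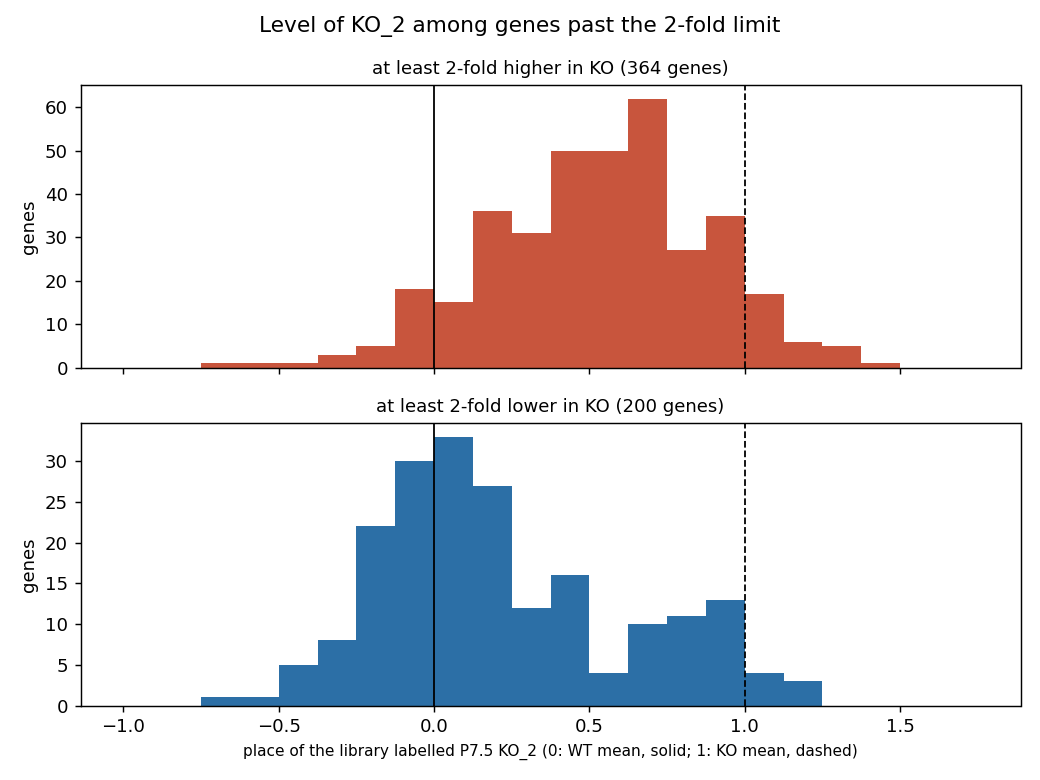
Histogram of the place of the library labelled P7.5 KO_2 for genes at least 2-fold higher (364 genes, upper panel) or lower (200 genes, lower panel) in KO; the horizontal axis is the place, with the WT mean at 0 (solid line) and the mean of the other 3 KO libraries at 1 (dashed line), and the vertical axis counts genes. The lower genes gather near the WT mean (median 0.128), and the higher genes lie between the means (median 0.548).

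Enzymes that break down amino acids, several of which glucagon is known to induce, were lower in a larger share than all genes. Of 61 tested, 21 fell, 8 of them at least 2-fold, and 3 rose (34.4% lower and 4.92% higher, beside 19.3% and 18.49% of all genes), and the median was -0.24. Sds, serine dehydratase, which turns serine into pyruvate and ammonia, read 4.63, 4.39, 5.04 and 5.16 in WT replicates 1 to 4 and 1.52, 2.48 and 2.13 in KO replicates 1, 3 and 4. The groups did not overlap, and the library labelled P7.5 KO_2 read 4.77, inside the WT range. Sds fell by 2.76 on the log2 scale (standard error, SE, 0.39, adjusted p = 2.5e-05), a 6.78-fold difference. Gls2, the liver glutaminase that frees ammonia from glutamine, read 4.61, 4.40, 4.66 and 4.80 in WT and 2.42, 2.97 and 2.60 in KO. All 3 KO libraries were low and KO_2 (4.66) again matched WT, and the difference was 3.87-fold (-1.95, SE 0.24, adjusted p = 5.1e-06). Tat, tyrosine aminotransferase, a classic gene induced by cAMP and glucocorticoids, read 4.79, 5.16, 5.35 and 5.55 in WT and 3.25, 3.83 and 3.72 in KO. It fell by 1.61 (SE 0.39, adjusted p = 0.0031) without overlap, and KO_2 stood at 4.96.

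Other members of the list that fell act on histidine (Hal, -1.28), serine and threonine (Sdsl, -1.23), glycine and methyl groups (Gnmt, -1.14), ornithine (Oat, -0.89) and tyrosine (Hpd, -0.74). The aminotransferases Gpt, for alanine (-1.18), and Got1, for aspartate (-1.08), fell as well. Both were named after their values were seen, as were Pklr, Fn1, Cxcl10 and Ifng below. Got1 no longer passed once KO_2 was counted as KO (-0.71). Of the members that rose, Acad8, of valine breakdown, was 0.87 higher, with no value for KO replicate 1. For 19 of the 24 members that passed, KO_2 lay nearer the WT mean, and for 14 inside the WT range. Over all genes that passed, KO_2 was inside that range for 566 of 3191 higher and 565 of 3335 lower genes. Without KO replicate 3 or KO replicate 4, 1 member was higher.

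The urea cycle, which detoxifies the ammonia that these enzymes release, was lower at several steps. Of its 10 genes 5 fell (50%, beside 19.3% of all genes) and 1 rose, with a median of -0.36, and 2 were lower in Cy5 alone or with a background fitted on all spots. Ass1, argininosuccinate synthetase, read 2.77, 2.73, 3.32 and 3.26 in WT and 1.29, 1.73 and 1.66 in KO, and KO_2 read 3.45. The KO libraries lay below every WT library, by a mean of 1.46 (SE 0.20, adjusted p = 1.7e-05). Slc25a15, the mitochondrial ornithine carrier, fell by 0.98, Cps1, the entry enzyme, by 0.85, and Asl, argininosuccinate lyase, by 0.62. Cps1 read 4.82 and 5.05 in WT replicates 1 and 2 and 5.73 and 5.75 in the other WT libraries, against 4.40, 4.61 and 4.46 in KO. KO_2 had the highest Cps1 value of all, 5.80, and counting it as KO ended that call (-0.52). Nags, which makes the activator of Cps1, differed by -0.36 (adjusted p = 0.036), but its KO and WT values overlapped, it did not pass without KO replicate 1, KO replicate 3, WT replicate 3 or WT replicate 4 (-0.35 to -0.26), and a background fitted on all spots turned it to 0.004. Arg1 and Otc differed by -0.36 and -0.07 and did not pass, and both turned above 0 with a background fitted on all spots (0.004 and 0.46). Glul, which binds ammonia into glutamine around the central vein, was 0.60 higher (adjusted p = 0.032), a call that ended without any 1 of the KO libraries (0.58 to 0.63), WT replicate 2 (0.54) or WT replicate 3 (0.59).

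Among 20 amino acid transporters 5 fell (25%) and 2 rose (10%), near the shares of all genes for falls and below them for rises. Slc43a1, a carrier of large neutral amino acids, read 3.80, 3.74, 3.66 and 4.05 in WT and 2.52, 2.84 and 2.90 in KO (-1.06, SE 0.11, adjusted p = 1.5e-06), with 3.57 in KO_2. Slc16a10, for aromatic amino acids, fell by 0.83, and Slc38a4, a sodium-coupled neutral amino acid transporter, by 0.68, the latter not with Cy5 alone (-0.27). Slc6a6, the taurine transporter, was 1.5 higher (SE 0.19), and here KO_2 (1.23) lay above the 3 KO values of 0.56 to 0.75, while WT lay between -0.96 and -0.69.

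**Figure D2:**
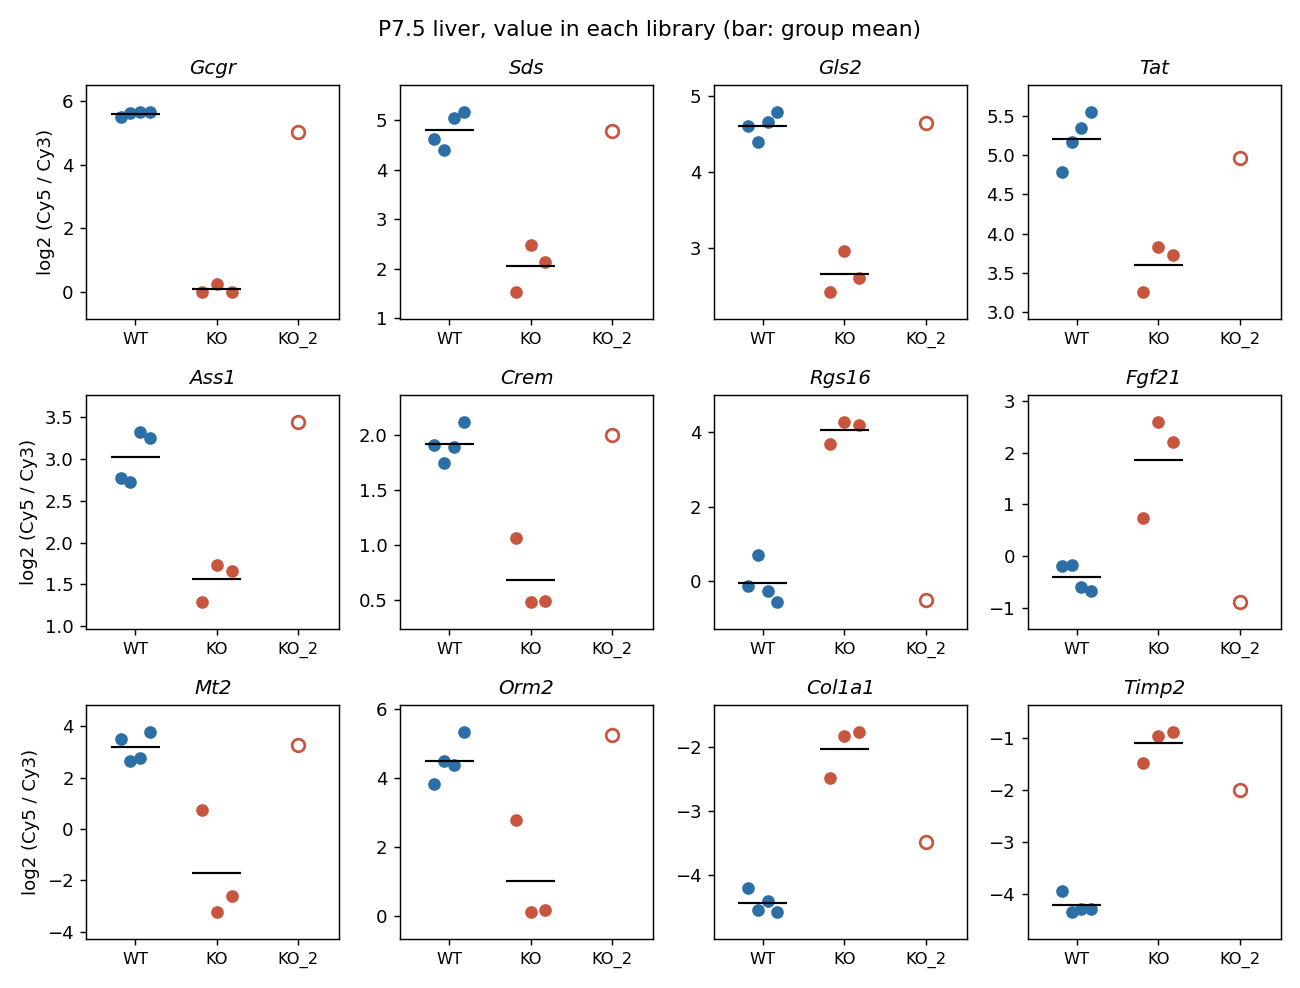
Log2 ratio of Cy5 (liver) over Cy3 (reference) of 12 genes in each P7.5 library, 1 panel a gene; points are single libraries of WT (blue, 4) and KO (red, replicates 1, 3 and 4), bars are group means and the open circle is the library labelled P7.5 KO_2. For Sds, Gls2, Tat, Ass1, Crem, Mt2 and Orm2 the open circle sits at the height of WT, while for Timp2 (-2.01) and Col1a1 (-3.48) it lies between the groups.

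Components of the glucagon pathway itself were higher in a larger share than all genes, but not under median centring. Of 26 tested, Gcgr included, 9 were higher (34.6%, beside 18.49% of all genes) and, besides Gcgr, which chose the libraries, 2 lower, and the median was 0.23. Pde4b, a phosphodiesterase that destroys cAMP and is itself induced by it, fell from between 0.40 and 0.46 in WT to -0.23, -0.40 and -0.34 in KO (-0.76, SE 0.15, adjusted p = 0.00063). KO_2 read 0.36. Akap1, an anchor for protein kinase A, was 0.58 higher, Prkacb, a catalytic subunit of that kinase, 0.52, and Ramp2, a partner of receptors of the glucagon receptor's class, 0.39. Each of these 3 lost its call when every array was centred on its median in place of loess (0.38, 0.26 and 0.22), under which 1 member of the list was higher and 4 lower, Gcgr again among them. Without KO replicate 4, 4 members were higher, and Prkacb did not pass (0.43).

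Genes that respond to cAMP moved in both directions, 6 of 19 higher and 3 lower (31.6% and 15.8%, beside 18.49% and 19.3% of all genes), a split that became 3 and 6 under median centring and 3 and 3 in Cy5 alone. Crem, whose cAMP-induced product ICER represses CREB targets, read 1.91, 1.74, 1.89 and 2.12 in WT and 1.07, 0.48 and 0.49 in KO. No KO library reached a WT value and KO_2 read 2.0, and the difference was -1.23 (SE 0.20, adjusted p = 0.00011). Rgs16, a regulator that shortens G protein signals, rose more than any other named gene. It read -0.12, 0.69, -0.26 and -0.56 in WT and 3.68, 4.28 and 4.2 in KO, a 17.3-fold rise (SE of the log2 difference 0.39, adjusted p = 4.2e-07), and KO_2 (-0.52) was at the WT level. Rgs16 did not pass at P2.5 (0.40) or at E18.5 (-0.61). Irs2, an adaptor of the insulin receptor, was 1.06 higher. Ppargc1a, a coactivator of gluconeogenic and mitochondrial genes, was 1.26 higher, with WT between 0.93 and 1.18 and KO between 2.03 and 2.49. KO_2 lay inside that KO range at 2.36, and in the Cy5 channel taken alone the difference was 0.03 and did not pass. Without KO replicate 3, 3 members of the list were higher.

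The genes of gluconeogenesis showed no common direction, with 3 of 16 higher and 3 lower (both 18.8%, near the shares of all genes) and a median of -0.01. This depended on the scaling: 0 were higher and 6 lower under median centring (median -0.20), and 1 higher and 6 lower with the software's log ratio. Pck1, which makes phosphoenolpyruvate and is the best known cAMP target of the liver, read 7.65, 7.77, 7.80 and 8.11 in WT and 6.57, 6.97 and 6.93 in KO. The groups did not overlap, but the difference of -1.01 (SE 0.42) missed the threshold (adjusted p = 0.062), and KO_2 lay between them at 7.22. It passed with the P7.5 libraries fitted alone, with the scanner software's own log ratio and with median centring (-1.01 to -1.31). G6pc, which releases free glucose, differed by -0.52 (adjusted p = 0.076) with overlapping values, by -0.23 without KO replicate 1 and by 0.24 in Cy5 alone. Slc37a4, which carries glucose 6-phosphate to that enzyme, rose by 0.97, more in KO replicates 3 and 4 (3.43 and 3.53) than in replicate 1 (2.42, with WT between 2.03 and 2.32). Fbp1, fructose 1,6-bisphosphatase, was lower by a small amount (-0.38, adjusted p = 0.027) that did not pass without any 1 of the KO libraries (-0.34 to -0.40), WT replicate 3 or WT replicate 4 (both -0.33). The 3 higher and 3 lower members became 1 and 1 without KO replicate 3 or KO replicate 4, 1 higher without WT replicate 1 or 2, and 1 lower without WT replicate 3 or 4.

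The promoters of Pck1 and Ppargc1a are shown because both hold the short form of the cAMP response element, TGACG, and their genes did not fall together. The search covered both strands of RefSeq promoters of build GRCm38.p6 (250 bases before to 50 after the start). The short form is present in 20.8% of 32851 promoters of that length and in 12 of 21 promoters of the cAMP response list, and in 8 of 54 promoters of the amino acid list. The full element, TGACGTCA, which contains the short form, is in 1.79% of all promoters, in 1 of the 21 of the cAMP response list, and in neither the Pck1 nor the Ppargc1a promoter. The 250 bases before the start follow, 5′ to 3′ on the gene's strand, with the short form in capitals, in both genes as its reverse complement (position -90 in Pck1, chr2:173152823-173153072, plus strand, and -49 in Ppargc1a, chr5:51567726-51567975, minus strand).
Pck1: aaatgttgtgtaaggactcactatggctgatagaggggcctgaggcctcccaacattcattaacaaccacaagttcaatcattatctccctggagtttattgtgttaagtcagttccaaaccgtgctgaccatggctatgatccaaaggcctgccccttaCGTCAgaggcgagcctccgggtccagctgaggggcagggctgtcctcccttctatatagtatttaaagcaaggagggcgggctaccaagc
Ppargc1a: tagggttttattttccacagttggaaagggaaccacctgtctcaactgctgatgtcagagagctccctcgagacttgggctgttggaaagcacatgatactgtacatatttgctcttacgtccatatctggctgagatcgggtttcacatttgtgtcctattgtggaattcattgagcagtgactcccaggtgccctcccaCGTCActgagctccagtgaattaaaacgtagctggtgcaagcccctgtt

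Genes of glycogen metabolism were higher more often than lower, and those of glycolysis were split. Of 26 genes of glycolysis 5 were higher (19.2%) and 6 lower (23.1%), beside 18.49% and 19.3% of all genes. The counts were 3 and 3 without KO replicate 3 or KO replicate 4, and 3 were higher without WT replicate 1 or WT replicate 4. Pklr, the liver pyruvate kinase, rose by 1.14 (adjusted p = 0.00051), with KO_2 at 1.04 below the WT range of 1.11 to 1.35; with the software's own log ratio it did not pass (0.58). Of 20 genes of glycogen metabolism 10 rose (50%, beside 18.49% of all genes) and 2 fell (10%, beside 19.3%). Among those that rose were Gsk3b, the kinase that inhibits glycogen synthase (1.31), the branching enzyme Gbe1 (0.89) and the glycogen tether Stbd1 (0.77). KO_2 lay in or near the KO range for Gsk3b (-0.07, with KO between -0.01 and 0.09) and at the WT level for Stbd1 (-0.18). The direction of the list depended on the scaling, since under median centring 2 members were higher, 3 lower and the median was 0.00, and 5 and 6 were higher without KO replicates 3 and 4. Without KO replicate 3, KO replicate 4, WT replicate 1 or WT replicate 4, 1 was lower.

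Among the named genes the largest fall after Gcgr was that of a metallothionein, Mt2. Metallothioneins are small proteins that bind zinc and copper and are induced by metals, glucocorticoids and inflammation. Mt2 read 3.5, 2.65, 2.76 and 3.79 in WT and 0.74, -3.23 and -2.62 in KO, and 3.27 in KO_2. Mt1 read 3.30, 2.76, 2.62 and 3.55 in WT and 1.01, -1.12 and -0.53 in KO, and 3.03 in KO_2. In both genes all 3 KO libraries lay below WT, with KO replicate 1 between WT and the other KO libraries. Mt2 fell 29.4-fold (-4.88, SE 0.60, adjusted p = 6.1e-06) and Mt1 9.66-fold (-3.27, SE 0.39, adjusted p = 4.4e-06), and without KO replicate 1 the differences were -6.10 and -3.88. The 2 genes are neighbours of the same family. Their probe sequences were not compared, so part of the signal may be shared. Neither passed at P2.5 (Mt2 -0.35, Mt1 -0.22) or E18.5 (0.36 and 0.27). Slc39a4, an importer of zinc, rose by 1.08 (adjusted p = 0.00014), from between 2.81 and 3.13 in WT to between 3.73 and 4.2 in KO. These genes belong to a list of 21 for metal binding and zinc or iron handling, which showed no common direction. In it 4 rose (19%) and 5 fell (23.8%), near the 18.49% and 19.3% of all genes, with a median of 0.01. Under median centring 0 were higher and 6 lower.

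The promoters of Mt1 and Mt2 are shown since the 2 genes fell together and metallothionein genes are controlled by metal response elements. Their core was searched as TGCACNC and TGCGCNC on both strands; 12.6% and 15.4% of all 32851 promoters hold these letters. Capitals mark the matches in the 250 bases before the start (Mt1, chr8:94178839-94179088, plus strand, with 1 match, at -23; Mt2, chr8:94172368-94172617, plus strand, with 3, at -223, -128 and, on the other strand, -50). A further 2 matches in Mt1 and 1 in Mt2 lie in the 50 bases after the start. A match of letters describes the sequence and does not show that a factor binds there.
Mt1: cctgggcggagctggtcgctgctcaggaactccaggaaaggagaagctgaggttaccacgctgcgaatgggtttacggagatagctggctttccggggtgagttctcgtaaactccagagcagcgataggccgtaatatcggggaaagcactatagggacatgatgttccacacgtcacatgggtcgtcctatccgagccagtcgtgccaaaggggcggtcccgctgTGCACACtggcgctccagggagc
Mt2: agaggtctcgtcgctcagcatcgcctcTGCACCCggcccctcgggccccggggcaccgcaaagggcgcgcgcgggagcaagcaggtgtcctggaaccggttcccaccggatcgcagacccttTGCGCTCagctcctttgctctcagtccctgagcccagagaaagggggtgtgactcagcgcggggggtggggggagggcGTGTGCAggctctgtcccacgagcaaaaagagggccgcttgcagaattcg

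Acute phase genes, most of them for proteins that hepatocytes secrete in response to inflammatory cytokines and glucocorticoids, fell with the metallothioneins. Of 35 tested, 18 fell (51.4%, beside 19.3% of all genes), 8 at least 2-fold, and 2 rose, and the median was -0.49. Orm2, an orosomucoid, read 3.82, 4.50, 4.37 and 5.35 in WT, 2.78, 0.13 and 0.19 in KO, and 5.25 in KO_2. KO replicate 1 lay below WT but far above the other KO libraries, and the mean fell by 3.48 (SE 0.46, adjusted p = 1.4e-05). The same order of libraries held for Orm1 (-3.02), Orm3 (-1.89), the serum amyloids Saa2 (-3.28), Saa1 (-2.31) and Saa3 (-1.68), and Lcn2, lipocalin 2 (-1.16). Tat (-1.61), given above with the amino acid enzymes, is also in this list and is its other member at least 2-fold lower. Orm1 and Orm3 were well above background on 2 of the 3 KO arrays. Members of the Orm and Saa families are close in sequence and may share probe signal. KO_2 was nearer the WT mean for 15 of the 20 members that passed. The 2 higher members were 1 without KO replicates 3 or 4 or WT replicates 1, 2 or 3. Outside the list, Gpr84, a receptor of myeloid cells, fell by 2.16 and Ccl12, a monocyte chemokine, by 2.23; Ccl12 was well above background on 2 of the 3 KO arrays and no longer passed without KO replicate 3 (-1.89), KO replicate 4 (-1.71) or WT replicate 4 (-2.15).

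Other large falls were those of Mmd2, a membrane protein (-2.95), and of 2 cytochromes P450, Cyp2g1 (-2.14) and the periportal Cyp2f2 (-1.57). Mmd2 read between 4.43 and 5.26 in WT, 1.1, 1.96 and 2.42 in KO and 3.96 in KO_2. Cyp2f2 read between 4.86 and 5.15 in WT, 2.91, 3.91 and 3.52 in KO and 5.33 in KO_2. In both genes KO replicate 1 was the lowest library, the reverse of its place among the acute phase genes.

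**Figure D3:**
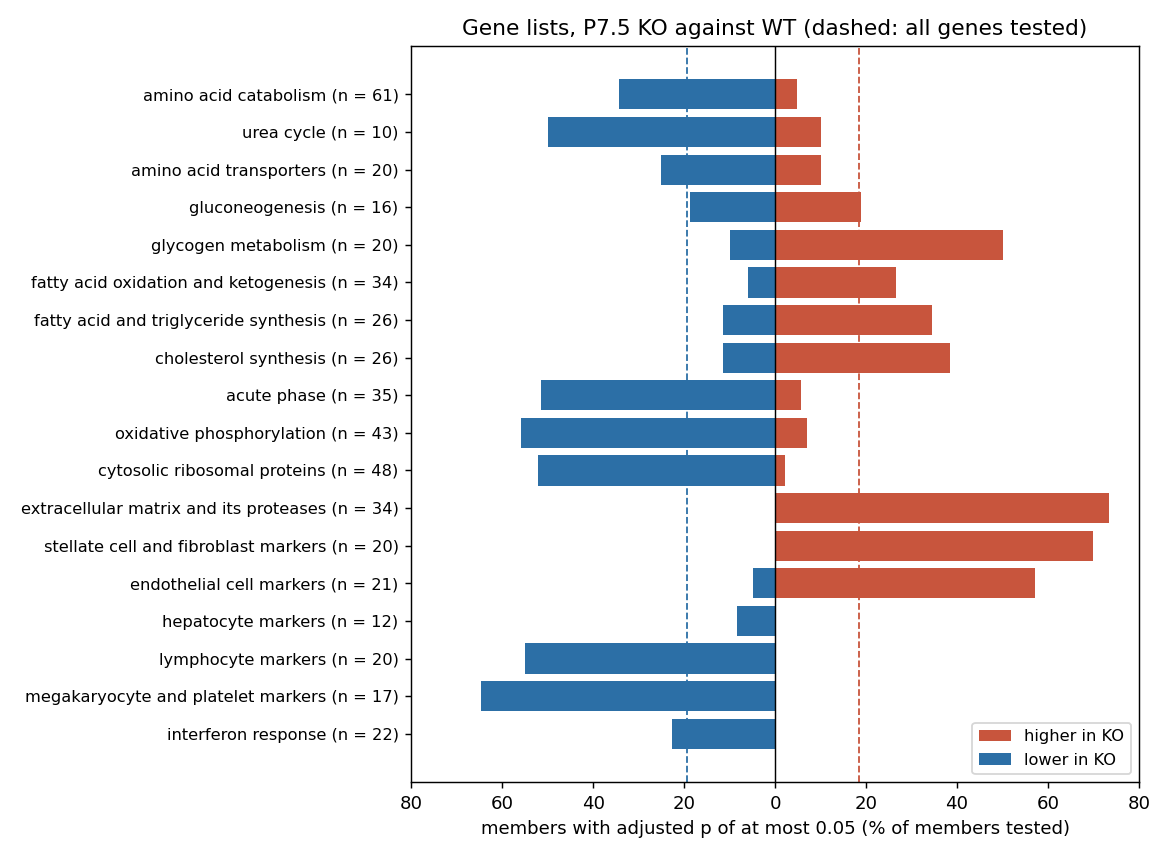
Share of the members of 18 gene lists that passed at a limma adjusted p of at most 0.05, drawn to the right for members higher in KO and to the left for members lower in KO, in percent of the members tested (n beside each name). Dashed lines mark 18.49% and 19.3%, the shares over all 17260 genes; extracellular matrix genes reach 73.5% higher, and platelet markers 64.7% lower.

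Lipid genes rose more often than they fell with loess scaling, but not in every list with other scalings. In fatty acid and triglyceride synthesis 9 of 26 rose (34.6%, beside 18.49% of all genes) and 3 fell (median 0.39; 5 higher and 3 lower under median centring), led by the elongases Elovl6 (1.58, SE 0.23, adjusted p = 3.2e-05) and Elovl5 (1.18) and by malic enzyme, Me1 (0.99). Elovl6 read between -1.16 and -0.91 in WT and 0.06, 0.73 and 0.82 in KO, with KO_2 between the groups at -0.48. Pnpla2, which begins the breakdown of stored triglyceride, fell by 0.46, a call lost without KO replicate 3 (-0.38). Without KO replicate 3 or KO replicate 4, 5 members of the synthesis list were higher. Among 26 genes of cholesterol synthesis and uptake 10 rose (38.5%) and 3 fell, and with KO_2 counted as KO 5 were higher. Stard4, a cholesterol carrier, rose by 2.21 (SE 0.20, adjusted p = 1.8e-07), from between 0.54 and 0.69 in WT to 2.26, 2.96 and 3.28 in KO, with 1.72 in KO_2, and Insig2, which holds back cholesterol synthesis, rose by 0.87 and Idi1, of that synthesis, by 0.83. Under median centring 3 members of the cholesterol list were higher and 3 lower, and without KO replicate 3, 6 were higher.

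In fatty acid oxidation and ketogenesis, which glucagon is known to favour, 9 of 34 rose (26.5%) and 2 fell (5.88%), beside 18.49% and 19.3% of all genes. Pdk4, which blocks the use of pyruvate, rose by 1.21, and Ppara, a regulator of the pathway, by 0.69. The split of the list varied with the scaling, from 19 higher and 0 lower in Cy5 alone to 2 higher and 5 lower under median centring, and 14 were higher without KO replicate 1, 3 without KO replicate 3 and 5 without KO replicate 4. Without KO replicate 3 or WT replicate 2, 1 was lower. Acsl1, which activates fatty acids, rose by 1.68 with most of the rise in KO replicates 3 and 4 (6.23 and 6.17, against 4.43 in KO replicate 1 and 3.72 to 4.22 in WT).

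Of 22 genes of bile acid synthesis and transport 3 rose and 2 fell (13.6% and 9.09%, below the shares of all genes). With the software's log ratio 0 were higher and 5 lower, and in Cy5 alone 9 and 1; 9 were higher without KO replicate 1, and 1 without KO replicate 3 or KO replicate 4. Cyp7a1, the rate-limiting enzyme of bile acid synthesis, read 2.57, 1.91, 3.15 and 2.60 in WT and 3.29, 4.77 and 4.81 in KO. It rose by 1.73 (SE 0.43, adjusted p = 0.0032), KO replicate 1 lay just above the highest WT library, and KO_2 (2.11) was at the WT level. The call was lost with KO_2 counted as KO (1.19) and with the software's own log ratio (0.51). Cyp8b1, which makes cholic acid, rose by 1.78 in the fit used here but differed by -0.02 with the software's log ratio, and it did not pass without KO replicate 3 (1.53) or KO replicate 4 (1.37). Baat, which joins bile acids to taurine or glycine, fell by 1.02. The water channels Aqp8, of the hepatocyte (1.52, SE 0.11, adjusted p = 1.6e-08), and Aqp4 (2.33) rose without overlap, and KO_2 read 4.69 for Aqp8, inside the WT range of 4.67 to 4.91. Apoa4, an apolipoprotein, was 1.59 higher (adjusted p = 0.00021) but differed by -0.08 with the software's log ratio.

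Of 28 secreted hormones and binding proteins of the liver 8 rose (28.6%) and 4 fell (14.3%), beside 18.49% and 19.3% of all genes. Under median centring 4 were higher and 5 lower, and 5 were higher without KO replicate 3 or 4. Without KO replicate 1, KO replicate 4, WT replicate 1 or WT replicate 4, 1 was lower. Without WT replicate 3, 2 were lower. Fgf21, a fasting hormone, read -0.19, -0.16, -0.60 and -0.67 in WT and 0.75, 2.59 and 2.21 in KO, and -0.88 in KO_2. Every KO library lay above WT, and the rise of 2.25 (SE 0.70) passed at an adjusted p of 0.016. It was lost without KO replicate 3 (1.88) or KO replicate 4 (2.07), and with KO_2 counted as KO (1.57). Igfbp3, the main carrier of IGF1 in blood, rose by 1.09 (adjusted p = 2.7e-05), with KO_2 inside the WT range (2.13). Angptl4, an inhibitor of lipoprotein lipase, rose by 1.09, a call lost with KO_2 counted as KO (0.70). Stc1, stanniocalcin 1, rose by 2.96, but there KO_2 (4.10) lay within the KO range of 4.09 to 4.6.

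In insulin and growth factor signalling 10 of 23 genes rose (43.5%, beside 18.49% of all genes) and 1 fell. Under median centring 3 were higher and 3 lower, and none was lower without KO replicate 1 or WT replicate 4. Eif4ebp2, a repressor of translation that mTOR controls, rose by 2.98 (SE 0.28, adjusted p = 2.8e-07), from between -0.74 and -0.46 in WT to 1.72, 2.62 and 2.75 in KO. KO_2 read 1.91, inside the KO range. The insulin receptor, Insr, rose by 0.97, with KO between 1.26 and 1.56, WT between 0.30 and 0.65 and KO_2 between them at 0.82. Stat5b, a transducer of growth hormone, rose by 0.64, but not under median centring (0.38). Of 21 immediate early genes 5 rose (23.8%) and 3 fell (14.3%), beside 18.49% and 19.3% of all genes. Jun, of the AP-1 complex, was among those that rose (2.30). Of this list 1 member was lower without KO replicate 4 and 5 were without KO replicate 1. Other regulators with large rises were Lrp6, a Wnt coreceptor (2.27), the coregulator Zmiz1 (2.24) and the ubiquitin ligase Rnf150 (2.71), and for Jun and these 3 KO_2 lay nearer KO. Genes with KO_2 inside the WT range and large rises were Arrdc3, an arrestin-related adaptor (1.98, SE 0.17, adjusted p = 1.4e-07), Plagl1, an imprinted transcription factor (1.64), Scn4b, a sodium channel subunit (1.47), and Tnfrsf19, a receptor of the tumour necrosis factor family (1.41).

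Genes of the extracellular matrix rose as a group more than any other list. Of 34 tested, 25 rose (73.5%, beside 18.49% of all genes), 12 of them at least 2-fold, and 0 fell, and the median was 0.78. Col1a1, a chain of the fibrillar collagen I, read -4.2, -4.55, -4.40 and -4.58 in WT and -2.48, -1.82 and -1.76 in KO. The groups were well apart and KO_2 lay between them at -3.48, and the rise was 2.41 (SE 0.34, adjusted p = 2.7e-05). Timp2, an inhibitor of matrix proteases, read -3.94, -4.34, -4.27 and -4.29 in WT and -1.48, -0.96 and -0.88 in KO, an 8.59-fold rise (SE of the log2 difference 0.21, adjusted p = 3.4e-09), with KO_2 at -2.01. Sparc, a collagen-binding glycoprotein, rose by 1.77, Fbln5, of elastic fibres, by 1.74, fibronectin, Fn1, by 1.64 and the protease Adamts1 by 1.29. KO_2 was nearer the WT mean for 17 of the 25 that rose and inside the WT range for 7, Fbln5 among them (-1.23). Over all 3191 higher genes KO_2 was nearer the WT mean for 1384 and inside the WT range for 566.

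Cells that make matrix in the liver are mainly stellate cells. Of 20 markers of stellate cells and fibroblasts 14 rose (70%, beside 18.49% of all genes) and 0 fell, with a median of 0.65. Under median centring 7 were higher and 2 lower, and with KO_2 counted as KO 12 were higher and 1 lower. Col1a1, Col1a2 and Col3a1 are in this list and in the matrix list, so the lists partly count the same genes. Dcn, decorin, rose by 1.64 (SE 0.20, adjusted p = 4.7e-06), Colec10, a collectin, by 1.74 and the receptor Pdgfra by 0.68, Pdgfra not under median centring (0.54). Summed as a mean log2 ratio over the list, the level was 0.12 to 0.20 in WT, 0.69 to 1.02 in KO and 0.43 in KO_2. In RNA of whole liver, more or fewer cells of a type and more or less RNA per cell cannot be told apart. Of 21 endothelial markers 12 rose (57.1%, beside 18.49% of all genes) and 1 fell, with a median of 0.44. Among those that rose were Lyve1, of the sinusoidal and lymphatic endothelium (1.79), the receptor Flt1 (1.14) and Oit3, of sinusoidal endothelium (1.05). With the software's own log ratio 3 endothelial markers were higher and 4 lower, with a median of -0.17. The matrix list kept its direction under that setting, with 24 higher and 1 lower, and under median centring, with 13 higher and 0 lower.

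Markers of lymphocytes and platelets were lower in a larger share than all genes. Those of erythroid cells, granulocytes and monocytes were not in the fit used here, but granulocyte and monocyte markers were with the software's log ratio. Of 19 erythroid markers 2 fell (10.5%) and 1 rose, and without KO replicate 1, 1 was lower and 4 higher. Of 19 granulocyte and monocyte markers 3 fell (15.8%) and 0 rose. Of these markers 1 was lower without KO replicate 1 or KO replicate 3, and 2 were higher without the former. With the software's log ratio 8 of the 19 were lower and 0 higher (median -0.62), beside 4194 of 17260 genes lower. Of 20 lymphocyte markers 11 fell (55%, beside 19.3% of all genes), 4 at least 2-fold, and 0 rose, with a median of -0.36, and with a background fitted on all spots 5 were lower. Cd3d, of the T cell receptor complex, read 2.5, 3.33, 2.78 and 3.26 in WT and 1.85, 1.42 and 1.66 in KO (-1.32, SE 0.20, adjusted p = 4.6e-05), and 2.64 in KO_2. Vpreb1, of the receptor of early B cells, fell by 1.34, and the granzymes of cytotoxic cells, Gzma and Gzmb, by 1.69 and 1.25. For both granzymes KO replicate 1 (4.96 and 3.01) lay just under WT replicate 1 (5.03 and 3.06). The mean level over the list was 1.33 to 1.71 in WT, 1.01 to 1.14 in KO and 1.57 in KO_2.

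Of 17 markers of megakaryocytes and platelets 11 fell (64.7%, beside 19.3% of all genes) and 0 rose, with a median of -0.59. Gp9, of the platelet receptor for von Willebrand factor, read 3.73, 3.75, 3.68 and 3.73 in WT and 2.19, 2.51 and 2.39 in KO (-1.36, SE 0.19, adjusted p = 2.7e-05). Pf4, platelet factor 4, fell by 1.27, Ppbp, a platelet chemokine, by 0.93 and Treml1, of platelet granules, by 0.82. KO_2 was at the WT level for all 4, with 3.57 for Gp9, and nearer the WT mean for 11 of the 11 members that passed. Counting it as KO left 5 of the 17 markers lower (in that fit 18.4% of all genes were lower). The mean level of the list was 1.90 to 2.05 in WT, 1.22 to 1.53 in KO and 2.09 in KO_2. Of 16 Kupffer cell and macrophage markers 5 fell (31.2%, beside 19.3% of all genes) and 0 rose. Without KO replicate 1, 3 rose and 4 fell, and without WT replicate 4, 1 rose.

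Interferon response genes split the KO libraries. Of 22 tested, 5 passed as lower and 0 as higher (22.7%, close to the 19.3% of all genes), while their median was -1.18. Gbp2, an interferon-induced GTPase, read 4.61, 4.63, 4.29 and 4.92 in WT, 4.50, 0.59 and 0.87 in KO replicates 1, 3 and 4, and 4.46 in KO_2. Isg15, a ubiquitin-like modifier, read 2.78, 2.79, 2.88 and 3.22 in WT, 2.97, -0.32 and -0.19 in KO, and 3.20 in KO_2. For both genes KO replicate 1 lay inside the WT range, and KO replicates 3 and 4 lay far below every other P7.5 library. The differences of Gbp2 (-2.63, adjusted p = 0.045) and Isg15 (-2.10, adjusted p = 0.023) rest on those 2 libraries. Gbp2 did not pass without KO replicate 3 (-1.93), KO replicate 4 (-2.07) or any 1 WT library (-2.73 to -2.52), and Isg15 did not pass without KO replicate 3 (-1.53), KO replicate 4 (-1.59) or WT replicate 4 (-2.0), or with replicates 3 and 4 averaged (-1.56). Bst2, which tethers viruses (-1.42), Irf7, a regulator of interferon genes (-1.27), and Oas1a, a sensor of double-stranded RNA (-1.16), passed too, but neither Irf7 (-0.93 and -1.11) nor Oas1a (-0.88 and -0.97) passed without KO replicates 3 and 4 in turn, nor Irf7 without WT replicate 2 (-1.27) or WT replicate 4 (-1.17). Without KO replicate 1, 20 of the 22 fell, 18 at least 2-fold, with a median of -1.90, Gbp2 at -3.88 and Isg15 at -3.18. Without KO replicate 3 or KO replicate 4, 1 member fell, and without WT replicates 2 and 4, 3 and 2.

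The same pattern was sought over all genes. In 83 of 17260 genes (0.481%) KO replicates 3 and 4 lay at least 2-fold below every WT library while KO replicate 1 was not below the WT range, and 15 of them belong to the interferon list. The reverse pattern, high in KO replicates 3 and 4 alone, was found in 7 genes. The 83 include Ifng, interferon gamma itself, at 3.27, 3.56, 2.68 and 4.24 in WT, 3.23, 0.55 and 0.61 in KO and 4.01 in KO_2, and the chemokine Cxcl10, at 1.99 and 2.24 in KO replicates 3 and 4 and between 5.23 and 7.35 in the other P7.5 libraries. Ifng did not pass (-1.98, adjusted p = 0.069) and read -2.86 without KO replicate 1. Cxcl10 did not pass (-2.51, adjusted p = 0.15), and its difference was -4.14 without KO replicate 1 and -1.63 without KO replicate 3. Psmb9 and Psmb8, immunoproteasome subunits that interferon induces, passed as lower (-1.76 and -1.65, adjusted p = 0.049 and 0.034), with KO replicate 1 (3.89 and 2.86) just under the WT libraries; leaving out KO replicate 3 or KO replicate 4 ended both calls (-1.31 and -1.47, and -1.19 and -1.37), as did leaving out any single WT library (-1.80 to -1.71, and -1.68 to -1.62).

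**Figure D4:**
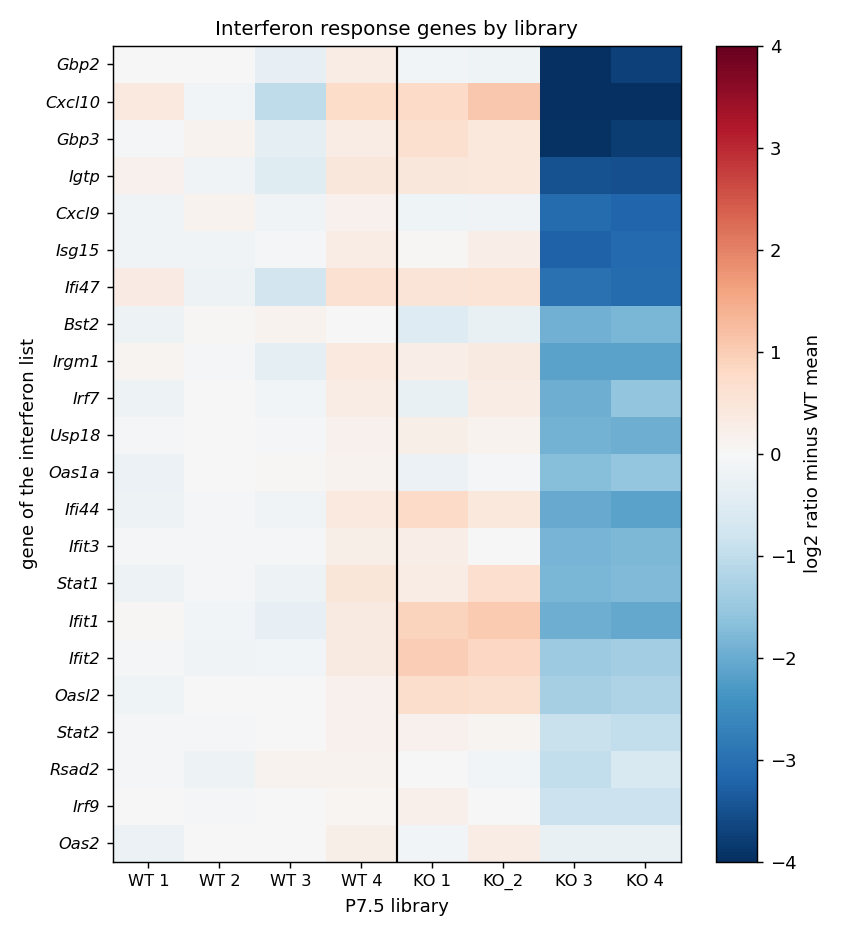
Heat map of 22 interferon response genes (rows) in the 8 P7.5 libraries (columns, with WT left of the line); colour is the log2 ratio minus the mean of the 4 WT libraries, from blue (lower) through white (equal) to red (higher), limited to 4 in each direction. KO replicates 3 and 4 are blue in nearly every row, while KO replicate 1 and the library labelled KO_2 are close to WT in most rows. Both lie above every WT library for several genes, such as Ifit1, Ifit2 and Oasl2, and below every WT library for Bst2.

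Promoters of Gbp2 and Isg15 are shown as members of that list that share a motif. The letters AANNGAAA, on either strand, which follow the core sequence bound by interferon regulatory factors, are in 14 of 22 promoters of the list (63.6%) and in 23.9% of all 32851; this motif was added after the values were seen. Capitals mark its matches in the 250 bases before the start (Gbp2, chr3:142620413-142620662, plus strand, 1 match on the other strand at -59; Isg15, chr4:156200819-156201068, minus strand, 1 match on the other strand at -128 and 3 overlapping matches at -76, -70 and -64).
Gbp2: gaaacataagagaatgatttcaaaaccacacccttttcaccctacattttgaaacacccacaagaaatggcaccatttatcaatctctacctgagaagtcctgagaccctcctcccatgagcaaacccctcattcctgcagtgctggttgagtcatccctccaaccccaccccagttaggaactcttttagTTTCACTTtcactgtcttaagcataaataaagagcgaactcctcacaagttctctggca
Isg15: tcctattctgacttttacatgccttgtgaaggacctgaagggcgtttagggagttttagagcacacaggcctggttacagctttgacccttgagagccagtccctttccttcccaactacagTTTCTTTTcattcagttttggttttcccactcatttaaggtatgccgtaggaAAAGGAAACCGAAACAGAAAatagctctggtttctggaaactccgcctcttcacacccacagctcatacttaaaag

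In some groups the library labelled P7.5 KO_2 went with KO in spite of its Gcgr level. Of 43 genes of oxidative phosphorylation 24 fell (55.8%) and 3 rose (6.98%), with a median of -0.30. Of 48 cytosolic ribosomal protein genes 25 fell (52.1%) and 1 rose (2.08%), with a median of -0.20, and 2 rose without KO replicate 1. Of all genes 19.3% fell and 18.49% rose. KO_2 was nearer the KO mean for 22 of the 27 and for 24 of the 26 that passed. Over all genes that passed, this held for 2219 of 3335 lower and 1807 of 3191 higher genes. Ndufs7, of complex I, fell by 0.69, Atp5d, of the ATP synthase, by 0.77, and the ribosomal proteins Rpl13a and Rps2 by 0.68 and 0.52. Rps2 read between 0.67 and 0.79 in WT, between 0.16 and 0.23 in KO and 0.21 in KO_2.

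The 8 small structured RNAs tested, which are short and mostly lack a poly(A) tail, all fell (beside 19.3% of all genes). Their median was -1.52, and KO_2 was nearer the KO mean for all 8. Rnu1b6, a U1 spliceosomal RNA, read 1.98, 2.36, 2.30 and 2.44 in WT, 0.05, -0.46 and -0.47 in KO and -0.23 in KO_2 (-2.56, SE 0.43, adjusted p = 0.00013). Rpph1, the RNA of RNase P, differed by -1.90 and Rnu3b1, a U3 nucleolar RNA, by -1.58. Their median was 0.09 at P2.5 and -1.36 at E18.5. Single genes with KO_2 inside the KO range were Glg1, a Golgi glycoprotein (1.93), Olfr1370, an odorant receptor gene (1.89), Dag1, dystroglycan (1.78), Cbfa2t3, a corepressor (1.78), Sfi1, a centrosomal protein (-1.69), and Dnm1, dynamin 1 (-1.53). Dag1 read between -1.12 and -0.75 in WT and 0.54, 0.87 and 1.11 in KO, but it did not pass in Cy5 alone (0.30), while Sfi1 and Dnm1 were lower in KO at all 3 ages (-1.44 and -1.31 at P2.5, -1.42 and -1.47 at E18.5). The part of the shared slide, scan and software in these differences was not tested and cannot be told apart from genotype for the arrays other than KO_2.

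The KO-WT difference at P7.5 was then compared with that at the earlier ages, each with its own 4 KO and 4 WT libraries, as an interaction in the same limma fit. It differed from the difference at P2.5 for 5728 genes (33.2%) and from that at E18.5 for 689 (3.99%). The second count moved widely: it was 1220 without KO replicate 1, 262 and 249 without KO replicates 3 and 4, 415, 396 and 362 without WT replicates 2, 3 and 4, and 70 under median centring. Of the 364 genes at least 2-fold higher at P7.5, 41 had passed as higher at P2.5 and 261 at E18.5, and of the 200 lower genes 26 and 42 had passed as lower. The difference of 83 of the higher and 55 of the lower genes was apart from that at both earlier ages. These genes were chosen for large P7.5 differences, and the interaction uses the same P7.5 values, so this is partly built in. The share of all genes is not given here for the counts at P2.5, at E18.5 or at both ages.

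The KO-WT difference at P7.5 differed from that at P2.5 for 14 of 61 genes of amino acid catabolism, 2 of 10 of the urea cycle, 5 of 19 cAMP response genes and 3 of 16 of gluconeogenesis, beside 33.2% of all genes. Of single genes in or near these lists described above, Sds differed by -0.54 at P2.5 and by 0.07 at E18.5, and its difference at P7.5 was further down by -2.22 and -2.83 (adjusted p of the interaction 0.0033 and 0.0057). Gls2 differed by -0.24 and 0.16 at the earlier ages and Crem by 0.09 and -0.08, and neither passed there. Their interactions passed against P2.5 (adjusted p = 0.0005 and 0.0013) and E18.5 (0.0012 and 0.025). The acute phase list had medians of -0.04 at E18.5, -0.26 at P2.5 and -0.49 at P7.5, and the amino acid list 0.08, -0.14 and -0.24. Matrix genes had medians of -0.36 at P2.5 and 0.37 at E18.5, against 0.78 at P7.5, and 27 of 34 differed between P7.5 and P2.5. Col1a1, for example, differed by 2.41 at P7.5, -0.67 at P2.5 and 1.05 at E18.5, and Fn1 by 1.64, -1.61 and 1.51. Array batches of KO and WT were separate at every age, and P2.5 KO lay on other slides than P7.5 KO.

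**Figure D5:**
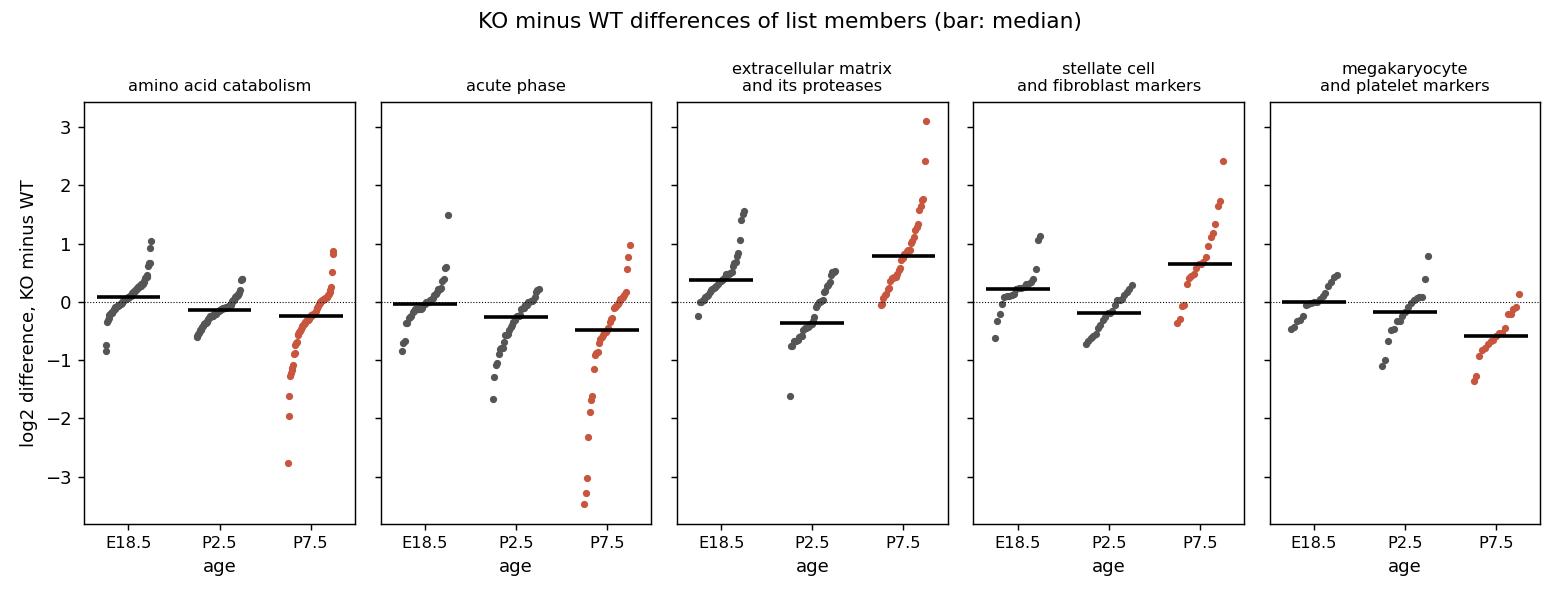
KO minus WT difference (log2, vertical axis) of each member of 5 gene lists by age (horizontal axis, E18.5 to P7.5), with members in rising order, P7.5 in red and the median as a bar. The matrix list moves from 0.37 at E18.5 through -0.36 at P2.5 to 0.78 at P7.5, and the acute phase list from -0.04 through -0.26 to -0.49.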

How the data were processed

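Total liver RNA was measured on 24 dual-colour Agilent arrays, with the sample in Cy5 and a universal mouse reference in Cy3, and no dye swap. The arrays were read with Agilent Feature Extraction 11, per the submitters' processing notes, in version 11.5.1.1 for WT and 11.0.1.1 for KO per the file headers. The values used are the deposited spot and local background intensities (median pixels, not normalized), and as alternatives the log10 ratios that the software wrote after its own background and dye correction, per the file headers, and the deposited log2 values of the series matrix, whose scale matched the loess log2 ratios on every array but whose making is not given in the sources used here. Any other step of the authors is likewise not given in the sources used here.

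Here outlier spots were left out, marked local backgrounds were replaced by the array's median background of that channel, backgrounds were corrected by normexp with an offset of 50, and each array was normalized by loess with control spots at weight 0 (limma 3.58.1, R 4.3.3, data.table version 1.17.8). Each gene was represented by its probe brightest in Cy5, out of the 26581 of 39429 probes with 1 gene symbol, and the 17260 genes well above background on at least 4 arrays were tested. A mean was fitted for each of 6 groups over 23 libraries, with moderated limma tests and Benjamini-Hochberg adjustment over all genes at 0.05. Precision is limited by how many arrays there are.

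The libraries, members and gene lists were chosen with earlier results of these data known. Named genes were the largest rises and falls without overlap, those with the library labelled P7.5 KO_2 inside the WT or the KO range, and list members. The genes Pklr, Gpt, Got1, Fn1, Cxcl10, Ifng, Gbp2, Arg1, Otc, Tef, Zbtb16 and Afp were added after their values were seen. Promoters are from RefSeq sequences of build GRCm38.p6, the interferon motif was chosen after seeing the data (a longer form was searched too), and proteins were not used here. Alternatives covered the library labelled P7.5 KO_2, background, normalization, filter, probes, libraries fitted, slide, replicate number and each library left out, and, chosen after seeing the data, KO replicates 3 and 4 averaged. On simulated data with 17133 genes, the P7.5 comparison recovered 64.2%, 91% and 100% of genes changed by 0.5, 1 and 2 on the log2 scale, with 3 calls among unchanged genes. The simulated noise was independent between libraries and held no slide, scan or software effect. The simulation therefore cannot gauge false calls from array batch or from the likeness of KO replicates 3 and 4. Some results are not reported here. Same-numbered KO and WT libraries did not deviate together (correlations of -0.0693, 0.147 and -0.154), so the numbers do not pair them.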

Additional observations from a re-analysis of the deposited data

Results flagged for a closer look

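Among 270 sets of 4 libraries examined, a single library stood far from the other libraries of its label in 14. Chance would mark about 1 in 20 independent sets. These sets share the same libraries, and some genes were named for the place of KO_2, so the count cannot be read against that rate. The library labelled P7.5 KO_2 stood apart in 9 of the 14. Its Gcgr value (5.02) was the reason it was set aside, and Rgs16 (-0.52) and Arrdc3 (0.43) are among genes named for its lying in the WT range, so these say nothing new of it. It also read 1.68 for Sdsl, 0.37 for Oat, 5.80 for Cps1, 3.72 for Glul, -0.18 for Stbd1 and 1.95 for Got1. Among WT libraries, replicate 1 stood apart for Timp2 (-3.94) and Gzma (5.03), replicate 3 for Idi1 (0.95), and replicate 4 for Jun (-2.68) and Pcx (4.52).

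The KO-WT difference at P7.5 differed from that at P2.5 for 90 of 134 named genes and from that at E18.5 for 53, by the interaction in the limma fit (adjusted p of at most 0.05), beside 33.2% and 3.99% of all genes. Some of these genes were named for large differences at P7.5. Those that differed at least 4-fold are given as the P7.5 difference minus the earlier one. Against P2.5, genes of the matrix and its cells were further up: Col1a1 by 3.08, Fn1 by 3.25, Timp2 by 2.59 and Dcn by 2.04. Regulators further up were Rgs16 (3.71), Plagl1 (3.39), Eif4ebp2 (3.23), Lrp6 (2.42), Jun (2.21), Irs2 (2.11) and Zmiz1 (2.04). Metabolic genes and carriers further up were Cyp8b1 (2.51), Acsl1 (2.39), Apoa4 (2.34), Slc6a6 (2.14), Aqp4 (2.09) and Stard4 (2.08), and the Golgi glycoprotein Glg1 was further up by 3.14.

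Further down against P2.5 were the metallothioneins Mt2 (-4.53) and Mt1 (-3.05), the acute phase genes Saa2 (-3.27), Orm2 (-2.90), Orm1 (-2.33), Saa1 (-2.27) and Orm3 (-2.06), and Mmd2 (-3.06), Gpr84 (-2.24), Sds (-2.22) and Vpreb1 (-2.04). The small RNAs Rnu1b6 (-2.64) and Rnu3b1 (-2.02) were also further down. Against E18.5, Rgs16 (4.73) and Aqp4 (2.10) were further up. Further down against E18.5 were Mt2 (-5.24), Mt1 (-3.54), Orm2 (-3.34), Orm1 (-2.86), Saa1 (-2.19), Orm3 (-2.11), Sds (-2.83), Gls2 (-2.12), Got1 (-2.12), Mmd2 (-2.74), Cyp2g1 (-2.08) and Cyp2f2 (-2.02).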

How the results depend on the processing

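Of 134 genes compared under 21 alternatives, 77 kept their call and direction under every one and 50 lost a call under at least 1; 176 of 2813 gene and alternative pairs lost a call and 13 gained one. The sign turned for Apoa4 (-0.076) and Cyp8b1 (-0.023) with the software's log ratio, for Nags (0.0041), Arg1 (0.0042) and Otc (0.46) with a background fitted on all spots, for G6pc (0.24) and Otc (0.037) in Cy5 alone, and for Otc with KO_2 kept (0.0499) and with the mean of all probes (0.0524). The cause was not tested. The 6527 genes that passed became 4184 under median centring (988 higher, 3196 lower); the software's log ratio gave 2788 higher and 4194 lower. Those settings put the median over all genes at -0.10. The 564 genes at least 2-fold apart became 328 with KO_2 kept and 1722 with the software's log ratio (693 higher, 1029 lower), and under median centring 207 were higher and 379 lower. The 689 genes that differed from E18.5 became 274 with KO_2 kept, 329 with a background fitted on all spots, 435 with the software's log ratio, 70 under median centring, 360 with slide as a random block and 247 with KO replicates 3 and 4 averaged. Leaving out 1 P7.5 library gave 4714 to 6498 genes, 421 to 874 at least 2-fold apart, and 249 to 1220 that differed from E18.5. No alternative moved the count against P2.5 (5728) by over 1.5 times, though its split under median centring was 3837 higher and 401 lower. With the replicate number as a block, 6173 genes passed, 508 at least 2-fold apart, 5438 differed from P2.5 and 482 from E18.5. Of 86 counts of list members, median centring moved 43 by over 1.5 times, KO_2 kept 20, and the series matrix 0. Genes not well above background in a group have only a bound there.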

Other observations

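Genes of the circadian clock and of the glucocorticoid response, lists that hold several genes described above, were also measured. Of 19 clock genes 7 rose and 0 fell (36.8% higher, beside 18.49% of all genes), and under median centring 4 were higher. Tef, a clock-controlled activator of the PAR bZIP family, read -0.42, -0.34, -0.22 and -0.54 in WT and 0.37, 0.77 and 0.72 in KO (0.998, SE 0.33, limma adjusted p = 0.021), with KO_2 at -0.12. The KO libraries lay above every WT library, but the call was lost without KO replicate 3 (0.92) or KO replicate 4 (0.95). The hours at which livers were taken are not given in the sources used here. Of 16 glucocorticoid response genes 3 rose (18.8%) and 6 fell (37.5%), beside 18.49% and 19.3% of all genes, and the members moved apart. Zbtb16, a transcription factor induced by glucocorticoids, rose by 1.74 (SE 0.43, limma adjusted p = 0.0036). Mt2, Mt1 and Tat, given above, fell. KO_2 read 0.82 for Zbtb16, between the groups.

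Of 22 genes typical of fetal liver 6 rose and 6 fell (both 27.3%, beside 18.49% and 19.3% of all genes). The split depended on the scaling, with 1 higher and 5 lower under median centring. It was 5 and 8 with the software's log ratio, and 5 and 3 in Cy5 alone. Afp, alpha-fetoprotein, the main plasma protein of the fetus, read 10.27, 10.19, 10.22 and 10.60 in WT, 9.33, 9.78 and 9.88 in KO and 9.76 in KO_2. It was 0.66 lower in KO on the log2 scale (-0.66, SE 0.15, limma adjusted p = 0.0018), but not in Cy5 alone (-0.12). Afp was lower in KO at P2.5 (-1.09) and E18.5 (-0.42) as well. Of 12 cholangiocyte markers 4 rose (33.3%, beside 18.49% of all genes) and 0 fell, with a median of 0.26.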
